A study of Gallus gallus with 6 samples.

Results

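The cytosolic ribosomal proteins are the protein parts of the ribosomes that translate nuclear-encoded mRNAs. They were taken here by gene symbol, as RPL or RPS followed by a number and at most 1 letter, RPLP0 to RPLP2, or RPSA, with a value above 0 in at least 3 of the 6 libraries. This gave 61 of the 17108 genes listed, 37 of the large subunit and 24 of the small subunit. RNA-seq libraries were made from 2 regions of the chick embryonic gut at embryonic day 5 (Hamburger-Hamilton stage 26). They comprised 3 libraries of the ceca, a pair of blind pouches that grow from the gut in birds, and 3 of the region that the labels call interceca. No treatment, allele or strain is given for either tissue. Whether each library is its own embryo or a pool is not stated in the labels; the p-values therefore describe only how these samples scatter, and that scatter may be technical.

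A ribosome has a large subunit, which forms peptide bonds, and a small subunit, which reads the mRNA. The acidic proteins RPLP0, RPLP1 and RPLP2 form the stalk that recruits elongation factors. In vertebrates, mRNAs of ribosomal proteins begin with a tract of pyrimidines, and their translation is set by mTOR signalling through LARP1. Transcription of ribosome components rises with MYC proteins, and the ribosomal protein mRNAs are among the most abundant in growing embryonic cells. Because the tissue was dissected whole, fewer cells of a type and less RNA per cell cannot be told apart.

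The symbol pattern matched 64 rows, and RPL10L, RPL34 and RPS26 were listed at 0 in all 6 libraries and are not among the 61. Values are RPKM, reads scaled by gene model length and by library size, and the reads behind them could be recovered as whole numbers. Recovered reads in genes ranged from 20982721 to 22910372 in ceca and from 15810180 to 22900120 in interceca. The library size behind the RPKM was not the plain total of these reads. It ranged from 0.991 times that total in ceca replicate 1 to 1.016 times in ceca replicate 3, and the reason was not tested. A gene was tested if it reached 1 RPKM in at least 3 libraries, which 60 of the 61 did. The exception was RPL3L, the striated muscle paralogue of RPL3, with 0.149, 0.200 and 0.0354 RPKM in ceca and 0, 0.153 and 0.0668 RPKM in interceca. These values rest on 0 to 6 reads per library, so no fold is given. RPL11, RPS19, RPL10, RPS4, RPS27, RPS27L, RPL39L and RPS27A are not analysed here, since no row carries those symbols.

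Some markers of other cell types differed between the tissues in the same libraries, and their part in the ribosomal protein values was not tested. Of 8 tested gut epithelial markers, 6 were lower and 1 higher in ceca (limma, adjusted over all genes), with a summed level of 128 to 199 RPKM in ceca and 388 to 594 in interceca, and KRT18 was listed at 0 in every library. All 6 tested smooth muscle markers were lower in ceca, at 184 to 212 RPKM summed in ceca against 466 to 495 in interceca. Of 4 tested mesothelial markers, 3 were higher and 1 lower, at 264 to 290 RPKM summed in ceca against 82 to 92.3 in interceca. Neural crest and neuronal markers summed to 764 to 854 RPKM in ceca and 904 to 946 in interceca, with 1 of 7 lower, and 4 with the block. Most of that sum is TUBB3, with a mean of 765 RPKM in ceca and 855 in interceca. The median log2 fold change of the 7 was -0.89, and all 7 lay below 0. The 5 tested red blood cell genes gave no call without the replicate block described with the comparison and 2 higher with it (HBG1 and HBE, named after their values were seen), at 740 to 775 RPKM summed in ceca and 535 to 718 in interceca. Endothelial markers gave 1 higher call of 6, at 100 to 116 against 83.2 to 111 RPKM, and leukocyte markers 1 higher and 1 lower of 4, at 24.5 to 38.3 against 19.3 to 23.1 RPKM. Of all genes tested, 14.1% were lower and 13.5% higher without the block, and 17.7% and 17.6% with it. Single calls in these short lists are near those shares.

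The ribosomal protein genes together had slightly less signal in ceca than in interceca. Their summed level was 87612, 95004 and 95675 RPKM in ceca replicates 1 to 3 and 91984, 101982 and 106390 RPKM in interceca replicates 1 to 3. The highest 2 ceca libraries lay above the lowest interceca library, so the tissues overlapped. Means were 92764 ± 4474 RPKM in ceca and 100119 ± 7381 RPKM in interceca (SD, n = 3 each), a ratio of 0.927. Between libraries of the same replicate number the ratio was 0.952, 0.932 and 0.899. As a share of the summed RPKM of all genes, the members took 16.0 ± 0.887% in ceca and 16.8 ± 0.914% in interceca. The ratio of the small to the large subunit sum was 0.681 ± 0.00741 in ceca and 0.690 ± 0.00565 in interceca. Large subunit genes summed to 55180 ± 2600 RPKM in ceca and 59227 ± 4279 in interceca, and small subunit genes to 37584 ± 1899 in ceca and 40892 ± 3110 in interceca.

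**Figure D1:**
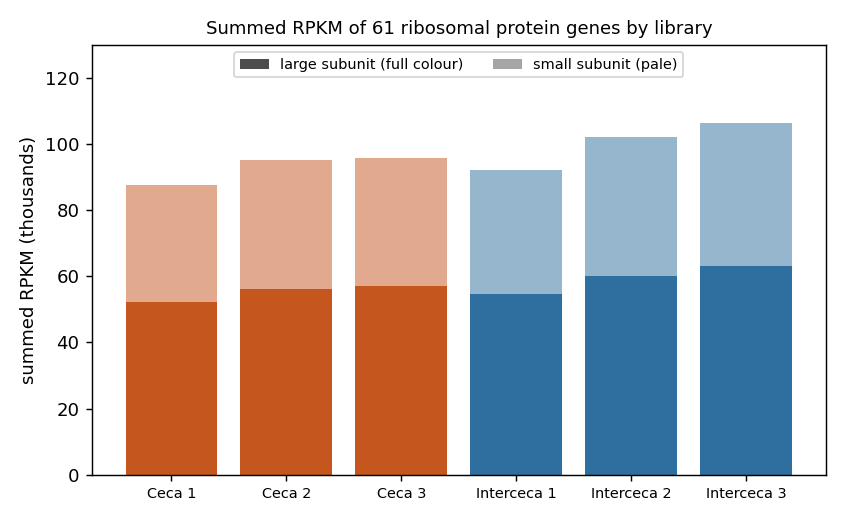
Summed RPKM of the 61 ribosomal protein genes in each library, split into large subunit (full colour) and small subunit (pale) genes; bars start at 0. The ceca bars reach 87612 to 95675 RPKM and the interceca bars 91984 to 106390 RPKM.

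By level per length, ribosomal protein genes made up 28 of the 50 and 52 of the 100 genes with the highest mean RPKM. RPL37A, a zinc-finger protein of the large subunit, was highest, with 3347, 3426 and 3543 RPKM in ceca and 3342, 3695 and 3808 in interceca. RPS3A, RPL9, RPS17L and RPS10 followed, with means of 3195, 2683, 2552 and 2483 RPKM in ceca and 3423, 2775, 2692 and 2631 in interceca. RPL37A lay above RPS3A, RPS3A above RPL9 and RPL9 above RPS17L in each of the 6 libraries, while RPS17L lay above RPS10 in 4 of the 6. Across libraries the ranges of these neighbours overlapped, except those of RPS3A and RPL9. At the low end, apart from RPL3L, stood RPS28 (222 RPKM in ceca, 259 in interceca), RPS16 (270, 297), RPL21 (367, 403) and RPS21 (385, 405). RPS28 lay below RPS16 and RPS16 below RPL21 in each of the 6 libraries, and RPL21 below RPS21 in 4 of the 6. Some of these low levels go with long gene models, of 3267 bases for RPS16 and 2883 for RPL21, against 367 for RPL37A. RPKM divides reads by this length, so a long gene model lowers the level of a gene without altering its ratio between tissues.

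Every one of the 60 tested genes had a lower mean log2 level in ceca than in interceca at the main scaling with all libraries. Under quantile normalization 22 were higher, and 7 were higher without ceca replicate 1, 3 without interceca replicate 2 and 9 without interceca replicate 3. Quantile normalization gives every library the same set of values, and 52 of the 100 genes with the highest mean RPKM are members. It can therefore remove a shift that the members share, so its sign changes do not decide whether there is one. The main scaling does not decide it either. Under it the summed RPKM of all genes was 579745 ± 5549 in ceca and 595464 ± 13488 in interceca (SD). Which scaling is right was not tested. Few single differences were called after adjustment in the fit on tissue alone. Log2 fold changes (ceca over interceca, after adding 0.5 RPKM to each value) ran from -0.24 to -0.034. Their median was -0.11, against 0.010 over all 10678 genes tested, of which 48% lay below 0. Scaled to equal summed RPKM outside the members, the median was -0.082, against 0.034 over all genes. With limma and Benjamini-Hochberg adjustment over all genes tested, 3 of the 60 were lower in ceca at an adjusted p under 0.05, or 5%, against 14.1% of all genes. None was higher, against 13.5% of all genes. At an unadjusted p under 0.05, 11 of the 60 (18.3%) were lower and 0 higher, against 18.9% and 20.1% of all genes. Limma-voom on the recovered reads called 8 lower and 0 higher, against 14.5% and 15.6% of all genes. In these counts with all libraries and without the block, the share called lower was thus below the background share. It was above that share without replicate 1 of both tissues, with 9 of the 60 (15%) against 11% of all genes. The same held without interceca replicate 1, with 8 of the 60 against 11.8%. When any other single library was left out it was below.

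The replicate numbers of the 2 tissues were taken to pair the libraries. This pairing comes from correlations in these data and not from a label, so each call with the block depends on it. With the replicate number as a block the count differed by more than 1.5 times. With the block, 25 of the 60, or 41.7%, were lower in ceca and 0 were higher (limma, also 0 at an unadjusted p under 0.05), against 17.7% of all genes lower and 17.6% higher. Limma-voom with the block called 40 lower and 0 higher, against 19% and 21% of all genes. The median standard error (SE) of the 60 log2 fold changes was 0.080 without and 0.039 with the block. Over all genes tested it was 0.085 and 0.068, and the median level was 15.7 RPKM against 1636 for the members. The shares called with the block therefore compare genes of unlike precision, and are not by themselves an excess of change in the members. In 54 of the 60, ceca was below interceca in every replicate number, against 30.4% of all genes. The 60 genes moved together from library to library, as the replicate 1 values below show. Counts of members, with or without the block, are therefore not counts of independent results. In 17 of the 60, all 3 ceca libraries lay below all 3 interceca libraries, against 21.1% of all genes, and in none was the order reversed, against 23% of all genes. Without the block the count was 0 when ceca replicate 1 or 2, or interceca replicate 2 or 3, was left out. Leaving out ceca replicate 3 gave 1, and leaving out interceca replicate 1 gave 8. Under quantile normalization 3 of the 60 were called lower, and with the block 6 were called lower and 1 higher.

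**Figure D2:**
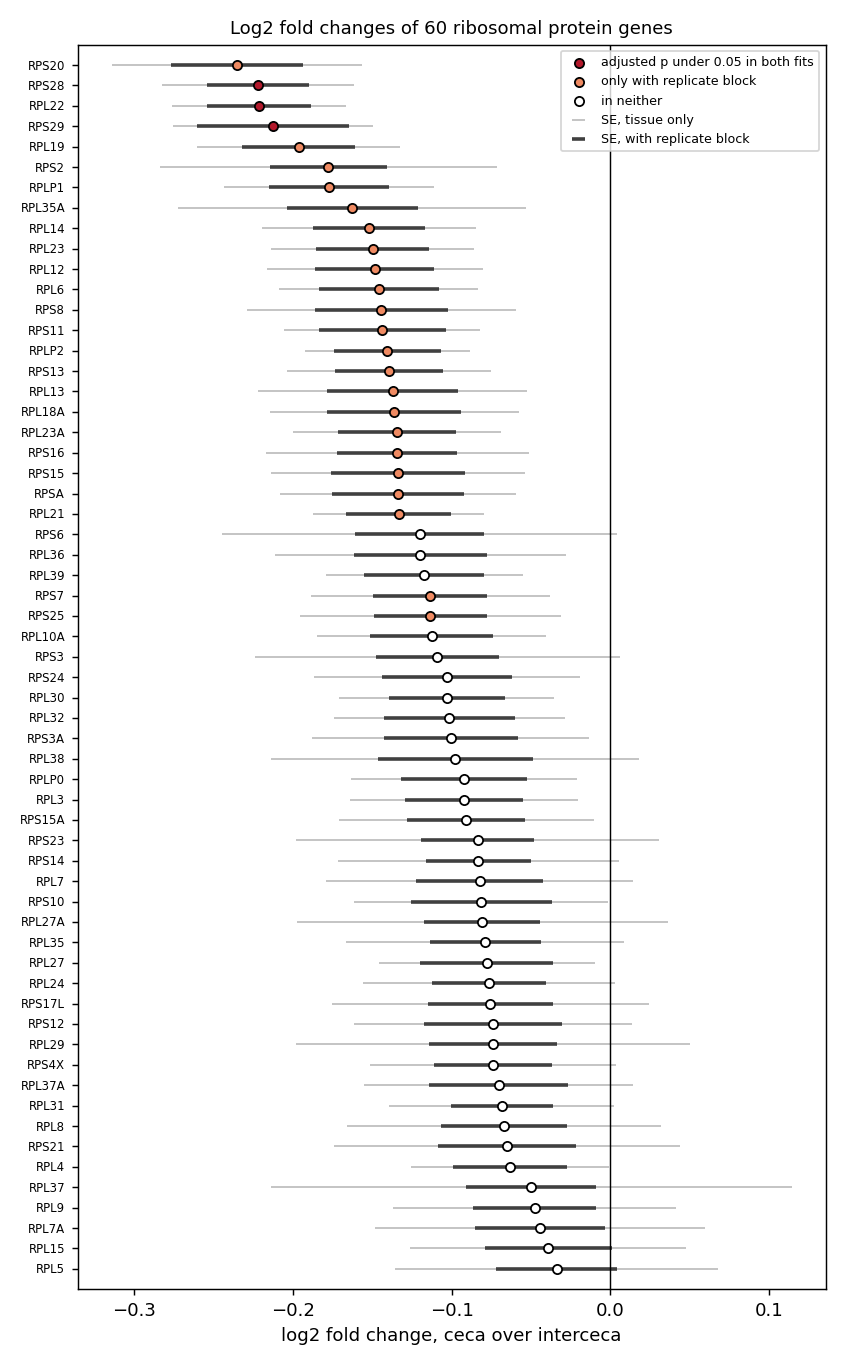
Log2 fold change, ceca over interceca, for each of the 60 tested ribosomal protein genes, with the SE of the fit on tissue alone (thin grey) and of the fit with the replicate block (thick). All 60 points lie below 0 at this scaling (22 lie above 0 under quantile normalization), from -0.24 for RPS20 to -0.034 for RPL5; dark red marks the 3 genes past the threshold in both fits and orange the other genes past it only with the block.

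RPL22, RPS28 and RPS29 passed the threshold in both fits. RPL22, a large subunit protein that also binds RNA outside the ribosome, had 834, 862 and 881 RPKM in ceca and 959, 1015 and 1032 RPKM in interceca. All ceca libraries were below all interceca libraries. Its log2 fold change was -0.22 ± 0.055 (SE), with an adjusted p of 0.0196 in limma and 0.0022 with the block. Under quantile normalization it was -0.039 and did not pass.

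RPS28, a small protein near the mRNA exit of the small subunit, had 213, 216 and 238 RPKM in ceca and 248, 256 and 274 RPKM in interceca. The tissues did not overlap. The log2 fold change was -0.22 ± 0.060, with an adjusted p of 0.0279 in limma and 0.0019 with the block. RPS29, a zinc-binding protein of the small subunit head, had 545, 527 and 546 RPKM in ceca and 575, 637 and 666 RPKM in interceca, again without overlap. Its log2 fold change was -0.21 ± 0.063, with an adjusted p of 0.0388 in limma and 0.0134 with the block. Each of these 3 calls in limma without the block was lost in at least 4 of the 6 fits that left out 1 library.

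RPS20 and RPL19 had differences of like size but missed the threshold in limma without the block at the main scaling. Limma-voom without the block called both lower, with an adjusted p of 0.0188 for RPS20 and 0.0222 for RPL19. In limma under quantile normalization without the block, RPS20 passed (adjusted p 0.0480) and RPL19 did not (0.192). RPS20, of the small subunit head, had 2104, 2233 and 2233 RPKM in ceca and 2388, 2596 and 2760 RPKM in interceca. Its log2 fold change of -0.24 ± 0.079 was the furthest from 0 of the 60, with an adjusted p of 0.0609 in limma and 0.0048 with the block. RPL19, which joins the subunits through a bridge, had 1397, 1431 and 1532 RPKM in ceca and 1626, 1654 and 1713 RPKM in interceca. Its log2 fold change was -0.20 ± 0.064, with an adjusted p of 0.0543 in limma and 0.0055 with the block. In both genes the tissues did not overlap.

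The stalk proteins RPLP1 and RPLP2 were called lower in ceca by limma with the block and their anchor RPLP0 was not. Limma-voom with the block called all 3 lower, with an adjusted p of 0.0168 for RPLP0. Limma-voom without the block called RPLP1 lower (adjusted p 0.0315), and not RPLP2 (0.0826) or RPLP0 (0.282). RPLP1 had 1704, 1738 and 1781 RPKM in ceca and 1863, 1997 and 2049 in interceca, with an adjusted p of 0.0855 in limma and 0.0106 with the block. RPLP2 had 408, 418 and 425 RPKM in ceca and 435, 464 and 481 in interceca, with an adjusted p of 0.0840 in limma and 0.0177 with the block. RPLP0 had 1838, 1894 and 1925 RPKM in ceca and 1872, 2053 and 2112 in interceca, overlapping, with an adjusted p of 0.383 in limma and 0.115 with the block. Whether the 3 stalk genes differ from each other in their change was not tested. RPSA, which is both a small subunit protein and a laminin receptor, had 1999, 2056 and 2094 RPKM in ceca and 2089, 2275 and 2393 in interceca, with an adjusted p of 0.227 in limma and 0.0432 with the block.

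**Figure D3:**
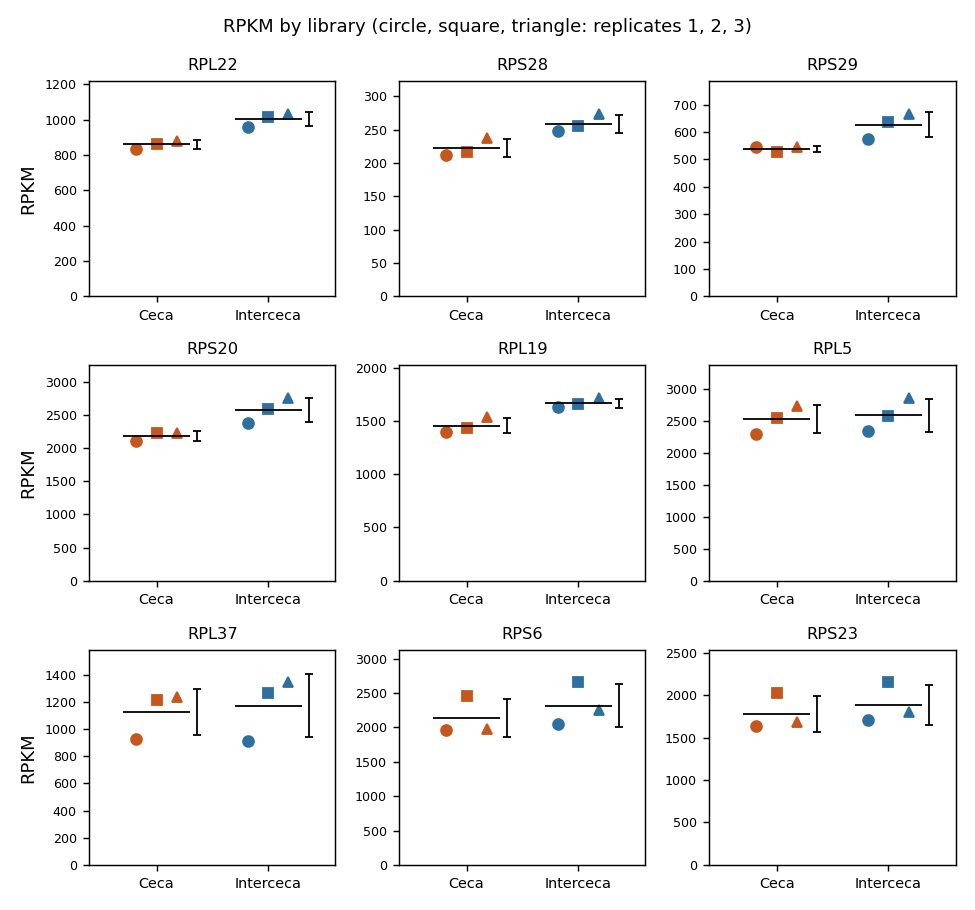
RPKM of 9 ribosomal protein genes in each library, ceca left and interceca right, with the mean (line) and SD (bar) of 3 libraries; each axis starts at 0. RPL22, RPS28, RPS29, RPS20 and RPL19 do not overlap between tissues, RPL5 and RPL37 do, and RPS6 and RPS23 are highest in replicate 2 of both tissues.

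The smallest differences belonged to large subunit proteins. RPL5, which carries 5S rRNA and binds MDM2, had 2295, 2543 and 2728 RPKM in ceca and 2333, 2570 and 2851 in interceca, a log2 fold change of -0.034 ± 0.10. RPL15 had 909, 1004 and 1000 RPKM in ceca and 880, 1058 and 1064 in interceca (-0.039 ± 0.087). RPL7A had 1887, 2220 and 2178 RPKM in ceca and 1902, 2226 and 2363 in interceca (-0.044 ± 0.10). In each of these the tissues overlapped, and neither fit called them. RPL9 and RPL37 followed, at -0.048 ± 0.089 and -0.050 ± 0.16. The signs of these 5 turned under quantile normalization.

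Genes known for a particular role in development or translation lay within the range of the others. RPL38, whose loss in mice alters axial patterning, had 676, 816 and 800 RPKM in ceca and 702, 820 and 940 in interceca, a log2 fold change of -0.098 ± 0.12. RPL24, of the mouse Belly spot and tail mutant, was at -0.077 ± 0.080 and RPL10A at -0.11 ± 0.072. RPS4X, the X-linked form in mammals, was at -0.074 ± 0.077. RPL3, at the peptidyl transferase centre, was at -0.092 ± 0.072. None of these passed the threshold in limma with or without the block. Limma-voom with the block called RPL10A (adjusted p 0.0099) and RPL3 (0.0134) lower, and not RPL38, RPL24 or RPS4X. RPL39, in the exit tunnel, had 1915, 1919 and 1927 RPKM in ceca and 2010, 2119 and 2121 in interceca, without overlap, with a log2 fold change of -0.12 ± 0.062 and an adjusted p of 0.206 in limma and 0.0501 with the block. In limma-voom with the block its adjusted p was 0.0085.

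Libraries numbered 1 had less ribosomal protein signal than the other libraries of their tissue. In ceca, 58 of the 60 genes were lower in replicate 1 than the mean of the other libraries, with a median difference of -0.11 on the log2 scale, against -0.0076 over all genes tested. In interceca all 60 were, with a median of -0.18, against -0.0041 over all genes. These differences within a tissue are as large as the difference between tissues. RPL37 differed most, with 929, 1212 and 1233 RPKM in ceca and 909, 1262 and 1343 in interceca. On the second principal component of all genes tested, with 10.2% of the variance, the scores were 14.28 for ceca replicate 1, 13.48 for interceca replicate 1 and -13.56 to -3.43 for the remaining libraries. Without replicate 1 of both tissues, an alternative chosen after seeing the data, 9 of the 60 were lower and 0 higher in ceca, against 11% and 10.4% of all genes, and the median was -0.13.

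**Figure D4:**
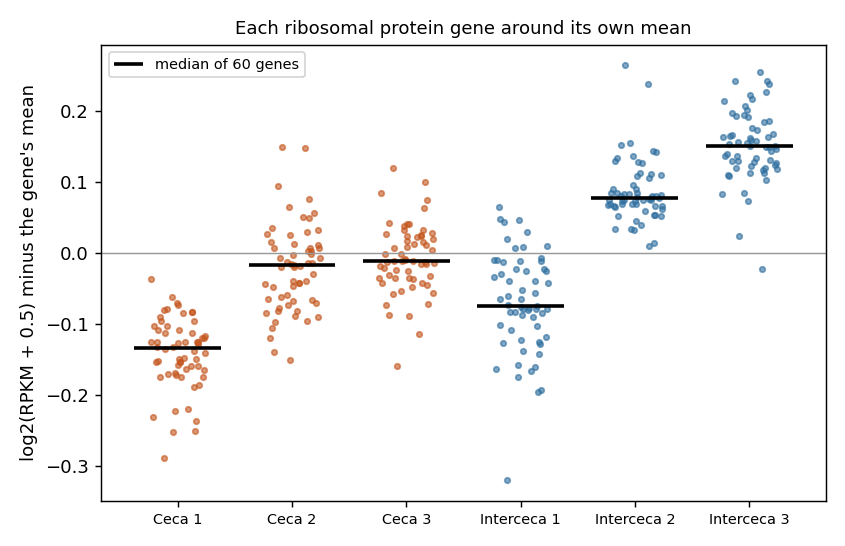
Level of each of the 60 tested genes in each library, as log2(RPKM + 0.5) minus the gene's mean over 6 libraries; points are genes and black lines medians. Replicate 1 has the lowest median in both tissues, and interceca replicates 2 and 3 have the highest.

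RPS6, the small subunit protein phosphorylated by S6 kinase, and RPS23, of the decoding centre, were also lowest in replicate 1 of both tissues, but stood out by a high replicate 2. RPS6 had 1964, 2453 and 1980 RPKM in ceca and 2051, 2656 and 2247 RPKM in interceca. RPS23, named after its values were seen, had 1633, 2020 and 1684 RPKM in ceca and 1712, 2150 and 1796 RPKM in interceca. In both genes replicate 2 was the highest library of its tissue, and its difference from the mean of the others was 0.32 in ceca and 0.31 in interceca for RPS6 and 0.28 and 0.29 for RPS23. The median of the 60 genes was 0.045 in ceca and 0.042 in interceca. The log2 fold changes of RPS6 and RPS23 were -0.12 ± 0.12 and -0.084 ± 0.11, not called in limma with or without the block. Limma-voom with the block called both lower, with an adjusted p of 0.0033 and 0.0421. In chicken RPS6, RPS23 and RPL37 lie on the Z chromosome. RPL37 was highest in replicate 3 of both tissues, with 1233 RPKM in ceca and 1343 in interceca. By the measure used for RPS6 and RPS23, replicate 2 of RPL37 was also above the mean of the others. That difference was 0.18 in ceca and 0.19 in interceca, above the medians of the 60 genes. Whether the location bears on these values was not tested. Positions at hand were only those of another assembly, and no value for Z-linked genes as a group is reported.

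**Figure D5:**
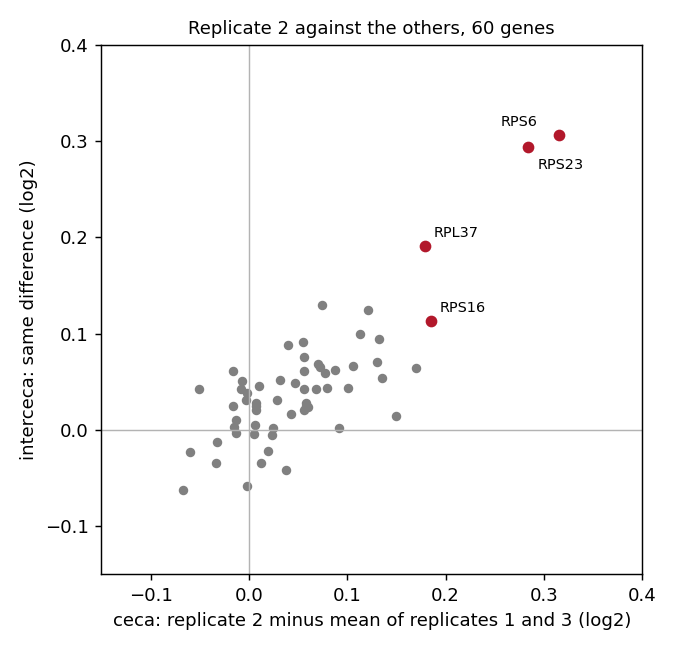
Difference of replicate 2 from the mean of replicates 1 and 3 on the log2 scale, in ceca (x) and interceca (y), for the 60 tested genes. RPS6 and RPS23 lie furthest from the rest, near 0.3 on both axes.

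The authors' deposited table gives its own comparison for the same genes. In the authors' deposited table all 60 had a log2 fold change below 0 and 5 had an FDR under 0.05, all lower in ceca: RPL22, RPS20, RPS28, RPS29 and RPL19. The background there is 11.1% of all listed genes lower and 9.8% higher. All 5 were among the 25 called by limma with the block, and 3 were among those that limma called without it.

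Genes outside the symbol pattern that belong to the ribosome or to translation were counted from fixed lists, to be read against 14.1% of all genes lower and 13.5% higher without the block and 17.7% and 17.6% with it. Of 4 ribosome-associated genes tested, none was called in limma without the block, and GNB2L1, the small subunit scaffold also known as RACK1, had 1752, 1756 and 1827 RPKM in ceca and 1824, 1976 and 2040 in interceca, with an adjusted p of 0.209 in limma and 0.0447 with the block. RPL22L1, the paralogue of RPL22, had 333, 365 and 374 RPKM in ceca and 333, 373 and 415 in interceca, with an adjusted p of 0.632 in limma. FAU and RSL24D1 are not analysed here. Of 8 elongation factor rows tested, 1 was higher and 0 lower (1 and 1 with the block), and 2 rows carry the symbol EF1A. The row called higher had 3.77, 7.88 and 6.07 RPKM in ceca and 1.94, 1.70 and 2.56 in interceca, while the abundant row had 8909, 9419 and 9595 RPKM in ceca and 9167, 10028 and 10364 in interceca and was not called.

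Initiation factors gave 1 higher and 3 lower of 25 tested, and 3 higher and 5 lower with the block. EIF4EBP1, the eIF4E-binding repressor that mTOR phosphorylates, fell to 178, 194 and 187 RPKM in ceca, against 217, 235 and 245 in interceca, a log2 fold change of -0.32 ± 0.058 with an adjusted p of 0.0047 in limma. EIF5, which activates the GTPase of eIF2, fell with a log2 fold change of -0.25 ± 0.042, and EIF3J with -0.13 ± 0.039. EIF4G3, a scaffold of the cap-binding complex, rose with 0.28 ± 0.065. The median of the 25 was -0.018.

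Ribosome biogenesis genes gave 2 higher and 0 lower of 37 tested, and 2 higher and 2 lower with the block, with a median of -0.055. MDN1, an ATPase of pre-60S maturation, had 7.41, 7.34 and 6.31 RPKM in ceca and 4.93, 4.18 and 4.00 in interceca, a log2 fold change of 0.63 ± 0.11. HEATR1, an early processing factor, rose with 0.31 ± 0.060. Of 11 RNA polymerase I genes tested, POLR1A rose (0.19 ± 0.059) and POLR1C fell (-0.16 ± 0.044), with a median of -0.071, and the block gave 2 higher and 1 lower.

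Among 12 tested genes of a list of mTOR and MYC regulators, 5 were higher and 2 lower in ceca, and 6 higher and 2 lower with the block. These counts do not separate activators from repressors. MYC had 30.4, 30.4 and 30.7 RPKM in ceca and 25.7, 23.9 and 23.3 in interceca, a log2 fold change of 0.32 ± 0.055. MYCN had 16.1, 15.0 and 14.7 RPKM in ceca and 34.3, 30.2 and 40.6 in interceca, a log2 fold change of -1.16 ± 0.10. RICTOR, TSC1, TSC2 and RPS6KB1 rose by 0.47, 0.21, 0.33 and 0.15 on the log2 scale, and DEPTOR, listed as DEPDC6, fell to 0.748, 0.992 and 1.20 RPKM in ceca, against 1.42, 1.71 and 2.20 in interceca. MTOR was at 0.29 ± 0.10, with an adjusted p of 0.0647 in limma and 0.0296 with the block, and LARP1 at -0.0019 ± 0.056, with an adjusted p of 0.984 in limma.

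Mitochondrial ribosomal proteins, which translate mitochondrial mRNAs, gave 1 higher and 4 lower of 57 tested, and 1 higher and 8 lower with the block, with a median of -0.073. MRPS6 rose, with 68.7, 77.0 and 89.4 RPKM in ceca and 48.2, 49.1 and 52.9 in interceca, a log2 fold change of 0.63 ± 0.091. MRPL44, MRPS15, MRPL41 and MRPL55 fell with log2 fold changes of -0.24, -0.23, -0.27 and -0.20. Of 14 proliferation genes tested, AURKA, a mitotic kinase, fell (-0.18 ± 0.054) and the other 13 did not pass, with a median of -0.029. With the block MKI67 and MCM2, named after their values were seen, were also called, both higher.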

How the data were processed

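Trizol RNA was turned into libraries with a directional NEBNext kit, per the labels' protocols. The submitters' processing notes name galGal4 as the build and list edgeR, HTSeq, STAR and bcl2fastq. Tool versions, roles and any use of strand in counting: not given in the sources used here. Genes that overlap another, and paralogues or pseudogenes sharing reads, are therefore uncertain. The deposited RPKM, per the file headers, are the authors' values. Their table also holds log2 fold changes, p-values and -log10 of the adjusted p-values, per the file headers. The log2 direction, ceca over interceca, was settled from the RPKM columns. The column total, 1 row without a gene name, was left out.

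A pseudocount of 0.5 was added to the RPKM, and log2 values were fitted by tissue alone in limma 3.58.1 (R 4.3.3; trended prior, two-sided test) for genes of at least 1 RPKM in at least 3 libraries, with Benjamini-Hochberg adjustment and a threshold of 0.05. Fold changes on this scale are understated for low genes. Whole reads, within 0.01 read, were recovered for 100% of the 14080 genes above 0, and limma-voom on them called 1546 genes lower and 1666 higher. The fit was run on simulated data with larger folds than those of the members and no shared replicate effect. That simulation therefore does not show how the fits handle differences this small or paired libraries. Python 3.11.15, numpy 2.4.6, pandas 2.3.3 and matplotlib 3.10.9 made the tables and figures.

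Deviations from tissue means correlated between same-numbered libraries at 0.364, 0.227 and 0.213, so the numbers were taken to pair them; this comes from the data, not from a label. Alternatives were another pseudocount, filter, scaling or trend, limma-voom, the block, and leaving out each library. The members and lists were chosen with earlier results of these data known. Genes named are all members past the threshold, the 5 highest and lowest by level and by fold change, a list of well-known members, and up to 4 per direction of each related list.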

Additional observations from a re-analysis of the deposited data

How the results depend on the processing

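The median log2 fold change stayed below 0 under every alternative run, from -0.17 without interceca replicate 1 to -0.014 under quantile normalization, and its lowest size among the fits that left out a library was -0.060. The ratio of summed RPKM, for the alternatives that give one, lay between 0.89 and 0.956. The count of members lower in ceca, 3 without the block, was 1 with equal summed RPKM outside the members, 1 with no trend, 8 with limma-voom and 25 with the replicate block. It lay between 0 and 8 when 1 library was left out. Among alternatives chosen after seeing the data it was 9 without replicate 1 of both tissues, 26, 24 and 40 for the block with median-of-ratios scaling, with equal summed RPKM outside the members and with limma-voom, and 6 for the block with quantile normalization, where 1 member (RPL15) was higher. The cause of these differences was not tested. With the replicate block no call made without it was lost among the members.

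Under quantile normalization, with or without the block, signs turned for 22 of the 60 members. Among genes named above they turned for RPL9 (0.043), RPS21 (0.010), RPLP0 (0.015), RPL5 (0.097), RPL38 (0.00027), RPS4X (0.026), RPL3 (0.019), RPL39 (0.0042), RPL37 (0.11), RPL7A (0.038), RPL15 (0.14) and RPL22L1 (0.00051), the last not a member. This normalization can itself remove a shift shared by genes that fill the top ranks, and which scaling is right was not tested. With 1 library left out, log2 fold changes ran from -0.11 to 0.0069 for RPL9, -0.18 to 0.038 for RPS21, -0.11 to 0.039 for RPL5, -0.21 to 0.0052 for RPL38, -0.22 to 0.082 for RPL37, -0.13 to 0.029 for RPL7A, -0.13 to 0.0078 for RPL15, -0.14 to 0.017 for RPL22L1, up to 0.014 for RPS23 and -0.038 to 0.039 for LARP1. LARP1 was also at 0.022 with equal summed RPKM outside the members, at 5.1e-05 with limma-voom and at 0.00032 with limma-voom and the block.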
